A study of Zostera marina with 23 samples.

Results

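Late and early female flowers of eelgrass, Zostera marina, were compared by messenger RNA sequencing in 6 of the 23 libraries of a series on 4 tissues. The 3 late libraries and the 3 early libraries were grouped by their tissue label. They are called here by the number in their titles, as late replicates 0, 1 and 3 and early replicates 0, 1 and 2. Late replicate 3 has conflicting labels, because its tissue label says late and its title says early. The labels do not define either stage further, and nothing in them ties the replicates to separate plants. The p-values therefore reflect the spread among these libraries, some of which may be technical. No genotype or strain is given. All plants had been brought from the field into seawater tanks, where flowering was induced by warming the water from 5 to 15 °C and by extending daily light from 12 to 16 hours. The 7 libraries of male flower, 4 of root and 6 of leaf in the same series did not enter the main comparison. They served to look up the genes, to choose genes that mark those tissues, and in an alternative fit of all 23 libraries.

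Eelgrass is a flowering plant that lives, flowers and sets seed submerged in the sea. Male and female flowers sit in the same inflorescence, the stigmas of the female flowers become receptive before the anthers of their own shoot open, and thread-like pollen is carried by the water. After pollination the ovary, with its ovule, develops into a fruit with a seed. How much of this course lies between the early and the late time point is not stated, and the samples are whole tissue, so that a change in the number of cells of a type and a change in RNA per cell cannot be told apart.

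The files give gene identifiers without gene names, products or sequences. Genes are therefore described by their levels, by their behaviour in other tissues and by their identifiers, and only 2 identifiers that rose and 2 that fell are named. For the same reason the female libraries were set beside genes that mark other tissues, further down, and known floral markers could not be used. Depth was 10302365 to 11576010 fragments per late library and 10748593 to 13679081 per early library. At least 3 fragments were found for 15854 to 16218 genes in late and for 15773 to 15992 genes in early libraries. The value given per gene and library is the deposited one, which is a fragment count already multiplied by 1 factor per library. It is called scaled fragments here. Of 22733 identifiers, 4489 were at 0 in all 6 libraries, and 14917 reached 10 scaled fragments in at least 2 of the 6 and were tested.

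The stages separated the female libraries. The first principal component of log2(scaled fragments + 1) held 53.4% of the variance. On this component late replicates 0, 1 and 3 lay at 58.7, 46.9 and 61.5, and early replicates 0, 1 and 2 lay at -53.1, -51.7 and -62.4. The second component held 21.3%. On it the late libraries spanned -18.7 to 15.7, and the early ones spread more widely, from -63.1 for replicate 0 to 53.1 for replicate 2. Across the genes tested, which are not independent replicates, Pearson correlations were 0.939 to 0.956 among the late libraries, 0.903 to 0.951 among the early libraries, and 0.851 to 0.903 between the stages. The median SD of a gene between replicates was 0.24 in late and 0.22 in early female flower on the log2 scale.

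**Figure D1:**
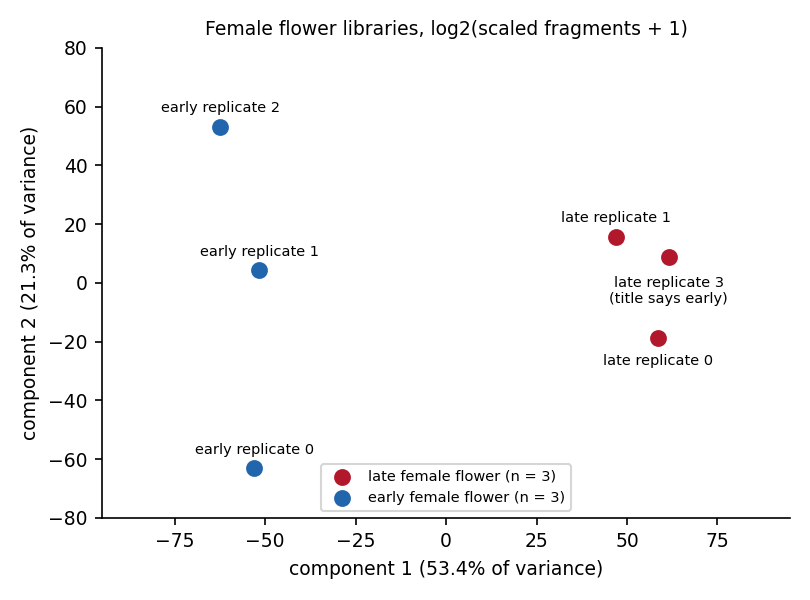
First (x axis) and second (y axis) principal components of log2(scaled fragments + 1) over the 14917 genes tested, 1 point per library, with the share of variance on each axis. The 3 late libraries lie at 46.9 to 61.5 on the first component, and the 3 early libraries lie at -51.7 to -62.4.

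The library with conflicting labels lay with the late libraries. It correlated at 0.953 to 0.956 with late replicates 0 and 1 and at 0.851 to 0.881 with the early libraries. A measure that this library did not enter was its position on genes called from the other 5 libraries. Of 14762 genes tested without it, 465 were called, 3.15%. A call here is an adjusted p below 0.05 (limma, Benjamini-Hochberg adjustment) together with a 2-fold or larger change. Late replicate 3 lay on the late side of the midpoint between the stage means in 440 of these 465 genes, 94.6%. That was the case for 224 of the 240 genes called higher and for 216 of the 225 genes called lower. On a scale where the early mean is 0 and the mean of the other late libraries is 1, its median position was 0.963. The genes called higher without it held 3.67% of its scaled fragments, against 0.934% to 1.01% in the early libraries, and the genes called lower without it held 0.965%, against 3.94% to 5.18% in the early libraries.

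When each other library was left out in the same way, late replicate 0 lay on its own side in 93.6% of 579 genes and late replicate 1 in 78.9% of 889 genes. Early replicates 0, 1 and 2 lay on their own side in 86.5% of 886, 94.7% of 397 and 77.4% of 1170 genes. Late replicate 1 had a median position of 0.762, the lowest of the late libraries, and early replicate 2 had 0.165, the highest of the early ones. Why the lists differ in length was not tested.

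**Figure D2:**
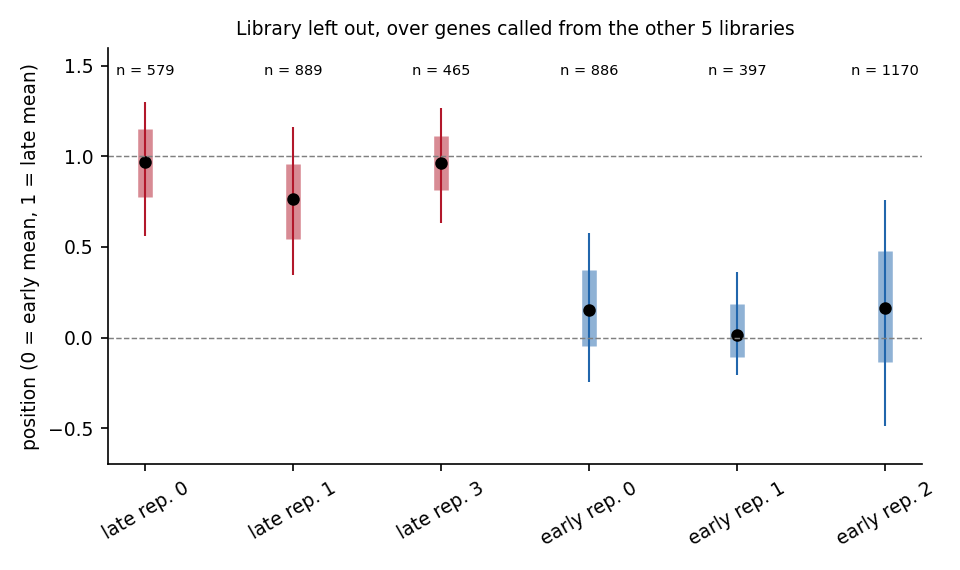
Position of each female library (x axis) on genes called from the other 5 libraries, where 0 is the mean of the other early libraries and 1 the mean of the other late libraries (y axis). Dots are medians, thick bars run from the 25th to the 75th percentile of genes and thin lines from the 10th to the 90th, with the number of genes above. The median of late replicate 3 is 0.963, and the medians of the early libraries are 0.0149 to 0.165.

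In late female flower 612 genes rose and 499 fell relative to early female flower, together 1111 of the 14917 tested, or 7.45%. The genes that rose were 4.1% and those that fell 3.35% of all tested. The test was limma on log2(scaled fragments + 1), fitted to the 6 libraries, with Benjamini-Hochberg adjustment. In each of the 1111 genes the late and early libraries did not overlap. Among all tested genes, every late library lay above every early one in 3348, 22.4%, and below every early one in 2422, 16.2%. The balance depended on the scaling, with 3029 above and 2665 below after quantile normalization, and it turned with median-of-ratios factors, at 2824 above and 2940 below. A further 903 genes passed the adjusted p with a change under 2-fold, and 983 changed at least 2-fold without passing it. The last gene called had an adjusted p of 0.0499 and the first that missed had 0.0503.

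The number of genes depended on single libraries and on how the library with conflicting labels was placed. It was 465 without late replicate 3, 579 without late replicate 0 and 397 without early replicate 1 by the same limma test, and without late replicate 1 404 rose and 485 fell. With late replicate 3 counted as early, by its title, limma called 0 genes, and 1381 had an unadjusted p under 0.05.

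The sizes of the changes were listed for the genes called. These genes were chosen on the same changes, so nothing is read from a difference between genes that rose and genes that fell. The median log2 fold change was 1.84 among genes that rose and -1.57 among genes that fell, against a median of 0.07 over all tested genes. At least 4-fold changes were found for 273 genes that rose and 177 that fell, at least 16-fold changes for 67 and 42, and at least 64-fold changes for 16 and 5. These sizes are on the log2(scaled fragments + 1) scale, on which low genes change less than their ratio of means. Genes with no fragment in any library of 1 stage were rare among those tested. In 9 genes all early libraries were at 0 fragments while each late library had at least 3, and in 2 genes the reverse held. All 11 were called, beside 7.45% of all tested genes, and the highest stage mean among them was 179 scaled fragments. These genes passed the filter only through the stage where they are high, so nothing is read from their calls.

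**Figure D3:**
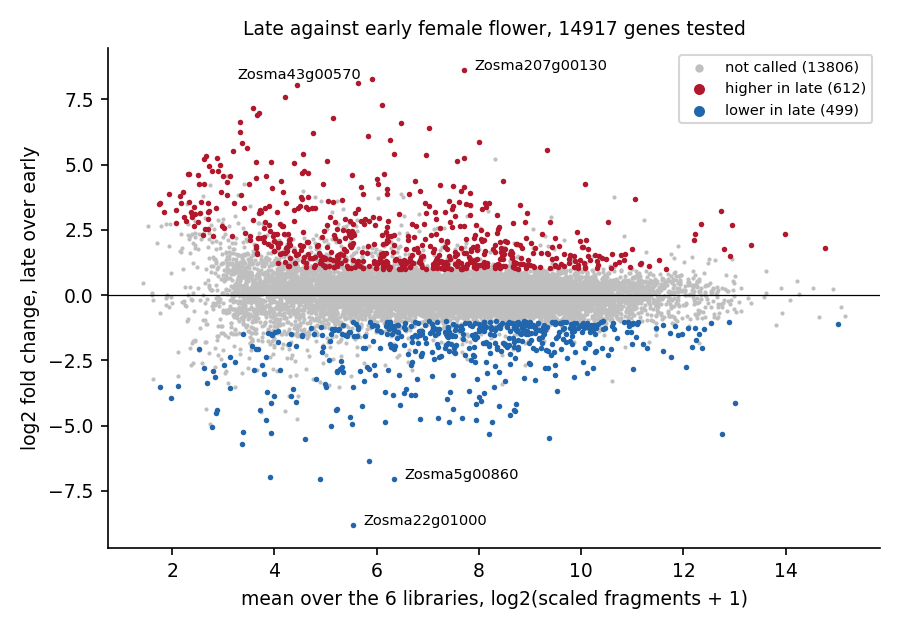
Log2 fold change of late over early female flower (y axis) against the mean of log2(scaled fragments + 1) over the 6 libraries (x axis) for the 14917 genes tested, with 612 genes called higher in late, 499 called lower and the rest in grey. Calls are spread over the whole range of levels, and the 4 genes named in the text are labelled.

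Zosma207g00130 was the gene with the largest rise among those with a stage mean of at least 100 scaled fragments. It had 4833, 2785 and 5247 scaled fragments in late replicates 0, 1 and 3, against 11.6, 7.33 and 10.4 in early replicates 0, 1 and 2. The stages were far apart, and late replicate 1 was the lowest of the late libraries. The ratio of the stage means was 439, with a 95% interval from 330 to 598 that covers counting error only (Clopper-Pearson). Its log2 fold change was 8.61 (SE 0.282, adjusted p = 5.37e-05, limma). Per length, it stood at 300.7 ± 88.2 FPKM (fragments per kilobase of gene, scaled to library size) in late and at 0.689 ± 0.155 FPKM in early female flower (SD, n = 3 each), which was rank 232 of all identifiers in late and rank 15118 in early. In the other tissues the gene was uneven between libraries. It ranged from 1.42 to 725 scaled fragments in leaf, with a median of 134, from 1.57 to 891 in male flower, with a median of 4.94, and from 0.747 to 4.89 in root.

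Zosma43g00570 rose by nearly as much. It had 1596, 910 and 824 scaled fragments in late replicates 0, 1 and 3, against 4.08, 1.57 and 1.95 in the early libraries, where 6, 3 and 3 fragments were counted. No late library came near the early ones. The ratio of means was 438, with a counting interval from 251 to 848, and the log2 fold change was 8.30 (SE 0.364, adjusted p = 1.92e-04, limma). Its level was 129 ± 45.4 FPKM in late and 0.302 ± 0.160 FPKM in early female flower (SD, n = 3 each). Outside the late female flower the gene was close to 0 in nearly every library. It was at 0 to 4.50 scaled fragments in leaf, at 0 to 5.23 in root and at 0 to 4.52 in 6 of the 7 male libraries, while male replicate 2 held 598.

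Zosma22g01000 showed the opposite pattern and the largest fall. It had 0, 2.18 and 2.34 scaled fragments in late replicates 0, 1 and 3, against 867, 1203 and 929 in early replicates 0, 1 and 2. Over the 3 late libraries 7 fragments were counted, against 5001 in the early ones. The ratio of early to late means was 664, with a counting interval from 322 to 1651, and the log2 fold change of late over early was -8.82 (SE 0.486, adjusted p = 5.26e-04, limma). Its level was 0.193 ± 0.167 FPKM in late and 126 ± 24.1 FPKM in early female flower (SD, n = 3 each). Among the tissues measured it was high in the early female flower alone, since it reached at most 13.6 scaled fragments in male flower, 0.814 in root and 2.90 in leaf.

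Zosma5g00860 fell in late female flower but was also high outside the female flower. It had 3.33, 16.7 and 3.51 scaled fragments in late replicates 0, 1 and 3, against 2092, 1102 and 348 in early replicates 0, 1 and 2. The early libraries varied among themselves, and the lowest of them lay well above every late library. The log2 fold change was -7.05 (SE 0.798, adjusted p = 0.00621, limma). With all 23 libraries fitted together the log2 fold change was the same and the adjusted p of limma was 0.147. Its level was 1.48 ± 1.46 FPKM in late and 217 ± 160 FPKM in early female flower (SD, n = 3 each). In male flower it ranged from 448 to 1745 scaled fragments, with a median of 906, and in root from 15.4 to 886, with a median of 641. In leaf the median was 4.42 and the highest library, replicate 1, held 1168.

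**Figure D4:**
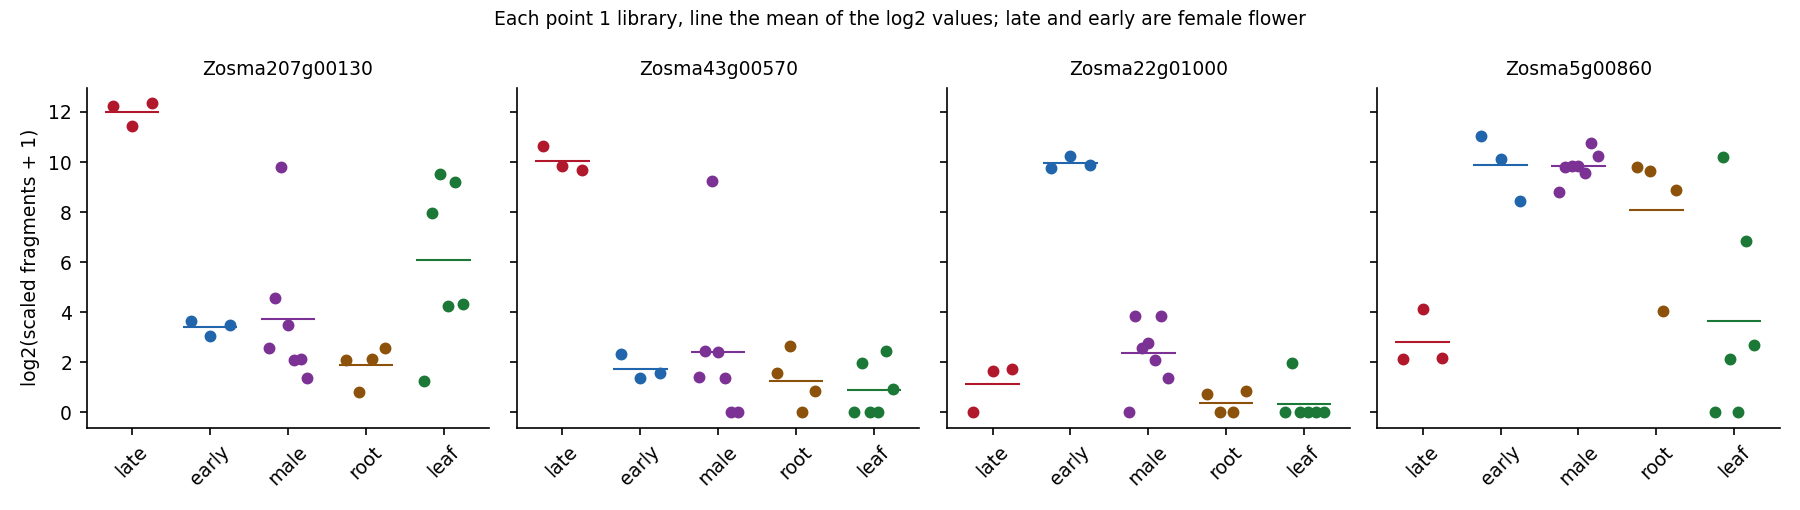
Log2(scaled fragments + 1) of 4 genes (y axis) in each library of late and early female flower (n = 3 each), then 7 of male flower, 4 of root and 6 of leaf, with 1 point per library and a line at the group mean. The late and early points of each gene do not overlap, and single points stand apart in male flower for Zosma207g00130 and Zosma43g00570.

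The levels of genes that rose and genes that fell were set side by side. Genes that rose had a median of 16.1 FPKM in late and 3.48 FPKM in early female flower. Genes that fell had a median of 8.18 FPKM in late and 33.2 FPKM in early female flower. Over all tested genes the medians were 14.2 FPKM in late and 14.1 FPKM in early. The tested genes were also divided into 4 equal bins by mean FPKM. In the lowest bin 229 rose and 102 fell, 6.14% and 2.73% of its genes. In the highest bin 132 rose and 195 fell, 3.54% and 5.23%. Among called genes alone, the absolute log2 fold change had a median of 2.07 in the lowest bin and 1.59 in the highest. The calls were made on the same changes, so nothing is read from this difference.

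The most abundant transcripts of each stage were listed as well, without the overlap between libraries of the same stage to compare with. The 10 genes of highest mean FPKM in late and the 10 in early female flower had 4 in common, and the 2 lists of 100 shared 66. In the late top 10, 5 genes were called higher in late and 0 lower, and in the early top 10, 1 was called higher and 2 lower, beside 4.1% and 3.35% of all tested genes. The lists were ranked on the libraries that also made the calls, so nothing is read from these counts. The late top 10 spanned 1742 to 12241 FPKM and the early top 10 spanned 1501 to 11694 FPKM. The genes that rose held 6.89%, 6.95% and 7.34% of all scaled fragments in late replicates 0, 1 and 3, against 1.76%, 1.85% and 1.95% in early replicates 0, 1 and 2. The genes that fell held 2.50%, 2.95% and 2.43% in the late libraries, against 9.10%, 9.86% and 8.05% in the early ones. These shares describe the size of the change and were not tested, since the genes were chosen on the same libraries. The share held by the genes with the most fragments overlapped between the stages. The 10 genes with the most fragments took 4.33% ± 0.505 in late and 5.08% ± 0.369 in early libraries (SD, n = 3 each, exact two-sided permutation p = 0.2, where 3 against 3 allows no p below 0.1).

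Length differed a little between the lists. The ratio of scaled fragments to FPKM, which grows with gene length, was 0.890 of the median tested gene for genes that rose and 1.09 for genes that fell. The interquartile range was 0.591 to 1.30 among genes that rose and 0.715 to 1.51 among those that fell. With the tested genes in 4 equal bins by length, 103 rose and 135 fell in the longest bin, 2.76% and 3.62% of its genes. In the shortest bin 174 rose and 104 fell, 4.66% and 2.79%. Over all tested genes the shares were 4.1% and 3.35%, and the difference between bins was not tested.

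The called genes were looked up in the other tissues, which the comparison did not use. Each gene was assigned to whichever of male flower, root and leaf had its highest mean of log2 values. Of the 612 genes that rose, 268 were highest in root, 212 in leaf and 132 in male flower, or 43.8%, 34.6% and 21.6%. Of the 499 genes that fell, 226 were highest in root, 61 in leaf and 212 in male flower, or 45.3%, 12.2% and 42.5%. Over all tested genes the shares were 32.1% for root, 27.9% for leaf and 40.0% for male flower. Genes highest in leaf were thus a smaller part of the genes that fell, and genes highest in male flower a smaller part of the genes that rose, than of all genes tested. These shares are a description and were not tested.

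The level in the 2 stages was also set beside those tissues. Late female flower stood above male flower, root and leaf in 274 of the genes that rose, 44.8%, against 30.7% of all tested genes. Early female flower stood above the 3 tissues in 329 of the genes that fell, 65.9%, against 29.8% of all tested genes. Early female flower stood below all 3 in 194 of the genes that rose, 31.7%, against 20.8% of all tested genes. Late female flower stood below all 3 in 85 of the genes that fell, 17.0%, against 20.8% of all tested genes. Part of this follows from the choice of the genes, which are high at 1 stage and low at the other by construction. A mean under 10 scaled fragments in each of the 3 other tissues was found for 32 genes that rose and 15 that fell, 5.23% and 3.01%, against 2.55% of all tested genes.

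Some libraries of the other tissues lay apart from their groups. Across genes, the mean correlation of leaf replicate 1 was 0.609 to its own tissue, 0.799 to late and 0.796 to early female flower. Mean correlations to the own tissue were 0.698 for root replicate 2, 0.736 for leaf replicate 4 and 0.737 for male replicate 5. An alternative chosen after the values were seen left out these 4 libraries and male replicate 2. Male replicate 2 did not lie apart by this measure, with a mean correlation of 0.885 to its own tissue. The genes that rose were then highest in root in 46.6%, in leaf in 34.5% and in male flower in 19.0%. The genes that fell were then highest in root in 53.9%, in leaf in 10.0% and in male flower in 36.1%, beside 32.7%, 30.3% and 37.0% of all tested genes.

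Sets of genes that mark the other tissues were made from male, root and leaf libraries alone, as genes that limma placed at least 4-fold above both other tissues, each at an adjusted p below 0.05. The 2537 male genes held 6.18% to 6.22% of scaled fragments in late and 6.33% to 8.20% in early female libraries, against 40.2% to 67.5% in male flower itself. The 1001 leaf genes held 7.90% to 9.13% in late and 6.01% to 6.67% in early female libraries, against 16.5% to 37.3% in leaf. The 1137 root genes held 2.76% to 3.15% in late and 2.81% to 3.04% in early female libraries, against 7.11% to 16.8% in root. In each set all 6 female libraries lay below the tissue that the set marks. The libraries of that tissue chose the genes, which raises its own share, so nothing is read from this. Of these genes, 101 male, 30 leaf and 257 root genes were at 0 in all 6 female libraries. The root shares overlapped with a set of 1895 root genes made without the 5 libraries left out above, which held 9.23% to 10.9% in late and 10.3% to 11.1% in early female libraries, against 8.27% to 26.0% in root.

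The leaf genes were higher in every late library than in every early one, and the male genes were lower. Leaf genes averaged 8.53% ± 0.618 in late and 6.32% ± 0.330 in early female flower, and male genes averaged 6.20% ± 0.0178 in late and 7.07% ± 0.991 in early (SD, n = 3 each). For both the exact two-sided permutation p was 0.1, the smallest that 3 against 3 allows, and 0.35 after Benjamini-Hochberg adjustment over 7 shares. Early replicate 0 held the most male genes, at 8.20%, against 6.33% and 6.68% in the other early libraries. Root genes averaged 3.01% ± 0.218 in late and 2.89% ± 0.131 in early, and the stages overlapped (exact permutation p = 0.4). Whether these shares come from cells of other tissues in the samples or from the same genes active in the female flower was not tested.

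**Figure D5:**
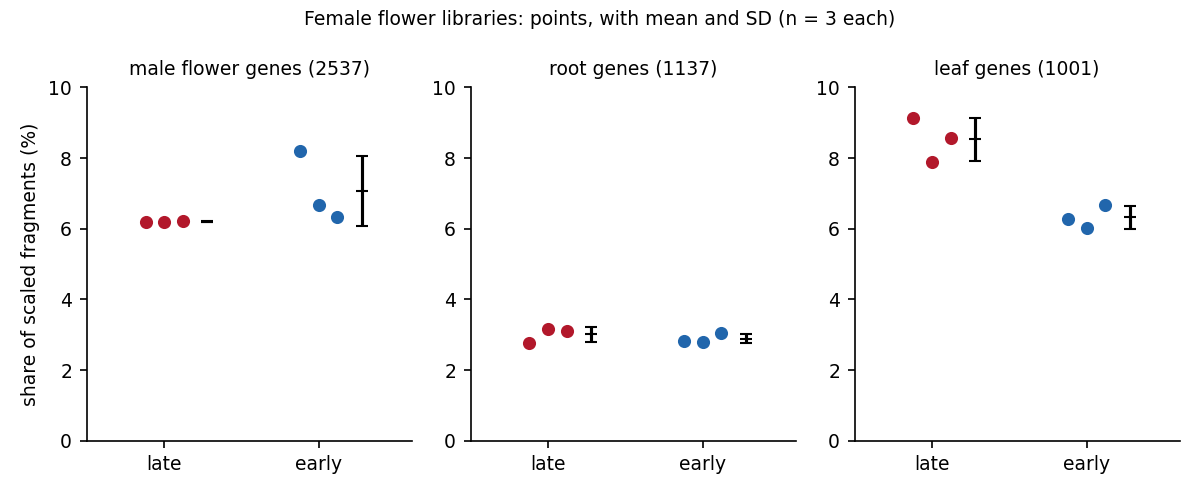
Share of scaled fragments (y axis, percent) in genes marking male flower (2537), root (1137) and leaf (1001) in each late and early female library, with the mean and SD beside the points (n = 3 each). Leaf genes span 7.90% to 9.13% in late and 6.01% to 6.67% in early libraries without overlap.

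Calls within these sets were counted as well. Of 869 leaf genes tested, 56 rose and 6 fell in late female flower, 6.44% and 0.690%, beside 4.1% and 3.35% of all tested genes. Of 1720 male genes tested, 36 rose and 65 fell, 2.09% and 3.78%. Of 517 root genes tested, 57 rose and 26 fell, 11.0% and 5.03%. With sets made without the 5 libraries left out above, 91 of 1073 leaf genes rose and 7 fell, 32 of 1730 male genes rose and 72 fell, and 107 of 1193 root genes rose and 107 fell, 8.97% each.

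The files do not explain the identifier prefixes ZosmaC and ZosmaM. The tested genes with these prefixes were all higher on average in late female flower, and limma called none. All 27 ZosmaC genes tested, of 92, had a positive log2 fold change, with a median of 0.86 and a range from 0.26 to 1.84. All 41 ZosmaM genes tested, of 104, did so too, with a median of 1.55 and a range from 0.99 to 2.93. A gene can pass the filter through 2 late libraries alone, and all these genes share the same libraries. Nothing is therefore read from the shared direction. By limma, 0 ZosmaC and 2 ZosmaM genes had an unadjusted p below 0.05. The libraries within a stage varied widely. ZosmaC genes held 0.0541%, 0.644% and 0.541% of scaled fragments in late replicates 0, 1 and 3, against 0.0358%, 0.140% and 0.206% in early replicates 0, 1 and 2. ZosmaM genes held 0.0201%, 0.418% and 0.361% in the late libraries, against 0.0142%, 0.0420% and 0.0990% in the early ones. The stages overlapped, because late replicate 0 lay among the early libraries, and the exact permutation p was 0.3 for each. The direction was not the same for all genes under every setting. Under quantile normalization 26 of the 27 ZosmaC genes stayed above 0, without early replicate 0 19 did, without late replicate 1 22 ZosmaC and 30 ZosmaM genes did, and without late replicate 3 24 ZosmaC and 30 ZosmaM genes did. These libraries were prepared with oligo(dT) beads, which select polyadenylated RNA.

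The place of the called genes in the numbering of the identifiers was examined next. Neighbours were identifiers with the same number before the letter g whose last numbers differ by 10. Of 559 genes that rose and had a tested neighbour, 77 had a neighbour that rose, 13.8%, against 6.31% of all 13920 tested genes with a tested neighbour. Of 474 such genes that fell, 64 had a neighbour that fell, 13.5%, against 5.36% of all. For neighbours that moved the opposite way, 3.76% of the genes that rose had one that fell, against 5.36% of all, and 4.43% of the genes that fell had one that rose, against 6.31% of all. These shares were not tested.

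The neighbours formed 32 pairs, 3 runs of 3 and 1 run of 4 among the genes that rose, and 29 pairs and 2 runs of 3 among those that fell. The 4 genes of the longest run had log2 fold changes from 1.49 to 8.07. Together they held 658, 765 and 2210 scaled fragments in late replicates 0, 1 and 3, against 110, 120 and 99.4 in early replicates 0, 1 and 2. A run of 3 genes that fell held 1378, 2474 and 1100 in the late libraries, against 7134, 7012 and 4972 in the early ones. Near-identical neighbouring genes can share reads, and how the authors' counting treated such reads is not given in the sources used here, so their separate values are uncertain. The part of shared reads in these runs was not tested.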

How the data were processed

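Polyadenylated RNA was selected on oligo(dT) beads and read from both ends on Illumina machines, per the labels' protocols. TopHat2 2.0.12, Cuffdiff 2.2.1 and Cuffnorm 2.2.1 appear in the submitters' processing notes, without role or order. The build, gene models and strand setting were not given in the sources used here. The authors' deposited count table holds a signal, the fragments of each gene times a factor of the library. In the female libraries 99.5% to 99.6% of values above 0 were whole multiples of a step (0.524 to 0.726, tolerance 0.01 steps), which served to count fragments. Residues near 0 prevented recovery of whole reads for every value, so count models were not run. The second deposited table holds FPKM.

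Log2(value + 1) of genes with at least 10 in 2 of the 6 female columns was fitted, late minus early, in R 4.3.3 by limma 3.58.1 (eBayes, trend and robust) on the deposited scaling. No libraries of a stage agreed within sampling noise (smallest chi-square per degree of freedom 30.3). Named genes are the 2 called in each direction with the largest fold, without overlap and with a stage mean of at least 100. The rule had asked for product names and lists of genes by product, which were not analysed here. The groups, genes and lists were chosen with earlier results of these data known. The fit was tested on simulated data. Alternatives were other pseudocounts, filters, scalings, weights, thresholds, placements of late replicate 3, a replicate block and each library left out. Other software was scipy 1.17.1, pandas 2.3.3, numpy 2.4.6 and matplotlib 3.10.9 in Python 3.11.15.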

Additional observations from a re-analysis of the deposited data

Results flagged for a closer look

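The named genes were examined for single libraries far from their group in male flower, root and leaf, on the log2 scale (Dixon's 95% limit), and 4 of 12 groups held one. Chance flags about 1 in 20 groups, a rate that does not apply where all other libraries are at 0, and 2 of the 4 come from the same library. Male replicate 2 held 891 scaled fragments of Zosma207g00130, against 1.57 to 22.6 in the 6 others. The same library held 598 of Zosma43g00570, against 0 to 4.52 in the others. Leaf replicate 1 held 2.90 scaled fragments of Zosma22g01000, where the other leaf libraries were at 0, so that any value above 0 would have stood out. Root replicate 2 held 15.4 of Zosma5g00860, against 474 to 886 in the other roots. The groups of late and early female flower, with 3 libraries each, were too small for this rule.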

How the results depend on the processing

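The 1111 genes called (612 higher, 499 lower) became 1945 (1069 higher, 876 lower) with estimated library weights, 48 (27, 21) with all 23 libraries in 1 fit, and 0 (0, 0) with late replicate 3 counted as early, where 1820 genes lay above and 1156 below without overlap. With no fold minimum 2014 were called (1093, 921) and at an adjusted p under 0.01 288 (142, 146). Leaving out each library in turn gave 397 to 1170 genes (225 to 613 higher, 172 to 557 lower). Fewer genes rose than fell with median-of-ratios factors, 515 against 581, and with quantile normalization, 506 against 565. The other pseudocounts, filters, scalings, the FPKM table and eBayes without trend gave 933 to 1148. Each named gene kept its sign under all 21 settings and lost its call with late replicate 3 counted as early, and Zosma5g00860 also with all 23 libraries and with the replicate block (log2 fold change -7.44, adjusted p = 0.0611, limma). The title number as a replicate block gave 1190 genes, and same-numbered libraries of the 2 stages correlated in their deviations at 0.255 (number 0) and 0.145 (number 1), a shared number only. The count tests planned were not run. On genes changed at least 4-fold, the shares on the side of the own stage were 83.1% for late replicate 1, 97.2% for late replicate 3, 83.9% for early replicate 0 and 81.8% for early replicate 2. Without the 5 libraries left out above, the late minus early difference in root genes was -0.784 percentage points, beside 0.118 with all libraries. Genes that fell were then highest in male flower in 36.1% and in root in 53.9%. With identifiers up to 50 apart, 30.6% of genes that rose and 28.3% of genes that fell had such a neighbour, against 24.7% and 21.0% of all. The causes were not tested. Depth limits the genes listed at 0, where a floor of 3 fragments per library is 1.57 to 2.18 scaled fragments.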

Other observations

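Some genes called in late female flower stood above the rest of another tissue in a single library of it. The shares given here were not matched for level. The median log2(scaled fragments + 1) of the genes that rose was 5.24 in male flower, 6.86 in root and 6.21 in leaf. Over all tested genes it was 7.47, 7.48 and 7.44. In male replicate 2, 25 of the 612 genes that rose were at least 4-fold above every other male library, 4.08%, against 0.402% of all tested genes and 4 of the 499 genes that fell. In male replicate 0 the count was 35, or 5.72%, against 0.845% of all tested genes and 3 genes that fell. In root replicate 2 it was 36, or 5.88%, against 0.912% of all and 5 genes that fell. In male replicate 1 it was 14, or 2.29%, against 0.623% of all and 4 genes that fell. In leaf replicate 4 it was 9, or 1.47%, against 0.456% of all and 4 genes that fell. In male replicate 5 it was 26, or 4.25%, against 3.10% of all and 26 genes that fell, or 5.21%. In leaf replicate 1 the share was also higher among the genes that fell. There 99 of the genes that fell and 55 of the genes that rose were at least 4-fold above every other leaf library. These were 19.8% and 8.99%, beside 7.05% of all tested genes. Each library not listed here held at most 5 such genes that rose.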
